A study of Mus musculus with 8 samples.

Results

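The core macrophage genes are 10 transcripts that mark macrophages of most tissues: Lyz2, Cd68, Adgre1, Csf1r, C1qa, C1qb, C1qc, Fcgr1, Mertk and Cd14. They were picked by gene name from the deposited expression table, 10 rows of 54532, and all 10 were described in all 8 RNA-seq libraries. The choice was of macrophage markers found in every library and was made with earlier results of the same data known. Their presence in all 8 libraries is therefore not a result. All 10 passed the filter on low values and are therefore among the 15708 genes tested.

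The study asked how cardiac fibroblasts that carry reprogramming factors differ between an infarcted heart and a culture dish. The starting cells, called MICFs, were a cardiac fibroblast preparation from the infarcted area of C57BL/6 mouse hearts 6 days after myocardial infarction (MI), which by the study's own account also held macrophages and a few endothelial cells. Every group received the same doxycycline-inducible lentiviruses, which delivered Mef2c, Gata4 and Tbx5 on 1 transcript (MGT), Myocd and Sall4 separately, and eGFP as a tracer, and every group was given doxycycline. The in vivo groups are eGFP+ cells sorted from hearts at week 1 (day 7) or week 2 (day 14) after the MICFs had been injected into the left ventricle of C57BL/6 mice with a fresh infarct, under daily tacrolimus, mycophenolate mofetil and methylprednisolone. The in vitro groups are eGFP+ cells of the same kind sorted at week 1 or week 2 from culture, in a medium that, per the study's methods, held SB431542, a TGF-beta receptor inhibitor, and baricitinib, a JAK inhibitor. Each of the 4 groups has 2 libraries. Mice that underwent infarct surgery were 8-week-old males. Which animals or dishes gave each library is not stated in the sources used here, so p-values below measure the spread between these libraries only. A sort on eGFP takes every cell that carries the tracer, whatever its type, and eGFP itself was not analysed here, so which of the sorted cells made the macrophage transcripts was not tested.

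Macrophages are phagocytes that clear dying cells and debris, and they are abundant in the heart during the first weeks after an infarct. They depend on signalling through the CSF1 receptor and on the transcription factor PU.1, encoded by Spi1. The 10 genes cover the main parts of the cell's equipment: lysosomal digestion (Lyz2, Cd68), complement (C1qa, C1qb, C1qc), growth factor sensing (Csf1r), antibody binding (Fcgr1), uptake of apoptotic cells (Mertk), sensing of lipopolysaccharide (Cd14) and surface identity (Adgre1, which encodes F4/80).

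The stretches before the transcription start are shown for 3 members that behaved differently in the comparisons: Fcgr1, the member that was higher in vivo, Cd68, the member with the largest negative log2 fold change at week 2, and C1qb, the member whose pattern lay closest to the mean of the others. They are the 250 bases before the start in RefSeq (GRCm38.p6), printed 5′ to 3′ on the gene's own strand, which is the minus strand for all 3. Capitals mark GAGGAA, letters that occur in sites of PU.1, and TTCNNNGAA, the letters of a STAT site, each searched on both strands, so that TTCCTC is GAGGAA read from the other strand. The stretches are chr3:96293970-96294219 for Fcgr1, chr11:69666171-69666420 for Cd68 and chr4:136886201-136886450 for C1qb.
Fcgr1: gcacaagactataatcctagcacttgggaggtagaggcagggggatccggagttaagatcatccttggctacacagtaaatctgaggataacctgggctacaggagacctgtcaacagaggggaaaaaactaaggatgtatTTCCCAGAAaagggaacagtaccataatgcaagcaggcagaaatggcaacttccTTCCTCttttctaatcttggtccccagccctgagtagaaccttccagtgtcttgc
Cd68: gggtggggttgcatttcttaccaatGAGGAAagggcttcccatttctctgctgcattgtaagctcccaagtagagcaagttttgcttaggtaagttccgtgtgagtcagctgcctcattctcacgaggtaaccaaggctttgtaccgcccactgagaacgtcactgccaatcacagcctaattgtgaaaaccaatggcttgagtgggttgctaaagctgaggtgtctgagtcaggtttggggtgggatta
C1qb: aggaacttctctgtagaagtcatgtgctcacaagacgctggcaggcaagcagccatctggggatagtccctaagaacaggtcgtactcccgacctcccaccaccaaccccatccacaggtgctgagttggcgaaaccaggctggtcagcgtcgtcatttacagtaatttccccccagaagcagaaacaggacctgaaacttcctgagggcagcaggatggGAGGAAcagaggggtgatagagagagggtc
RefSeq start windows were at hand for 6 of the members (these 3, C1qc, Lyz2 and Mertk). GAGGAA was found in 4 of the 6 (Fcgr1, C1qb, C1qc and Cd68), and in 23.3% of all 32851 windows of the same length. TTCNNNGAA was found in 1 of the 6, that of Fcgr1, where it begins 109 bases before the start, and in 7.02% of all windows. These are matches of letters in a fixed window, with no measurement of binding.

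Depth was even. The libraries held 12304242 to 14546904 fragments on genes, read back from the deposited values, and the 10 genes together had 31163 to 52363 fragments in the in vivo libraries and 95127 to 124308 in the in vitro libraries. The fewest fragments behind any member were 99, for Fcgr1 in 1 in vitro library at week 1. Values are in FPKM, a fragment count divided by gene length and by library size, so levels can be compared between genes. The FPKM were scaled so that the in vivo libraries counted as 0.863 to 0.915 times their fragments on genes and the in vitro libraries as 1.09 to 1.15 times.

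The summed level of the macrophage genes was lower in vivo. The sum of the 10 was 3111 and 2715 FPKM in vivo at week 1 and 2387 and 1976 FPKM in vivo at week 2. In vitro it was 5253 and 5972 FPKM at week 1 and 4864 and 5981 FPKM at week 2. The 4 in vivo libraries all lay below the 4 in vitro libraries, and the lowest values were those of the hearts at week 2. In these bulk libraries fewer macrophages and less RNA per macrophage cannot be told apart. Lyz2 carried most of the gap, since the other 9 genes summed to 1001 to 1658 FPKM in vivo and 1679 to 2270 FPKM in vitro, a narrow separation.

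**Figure D1:**
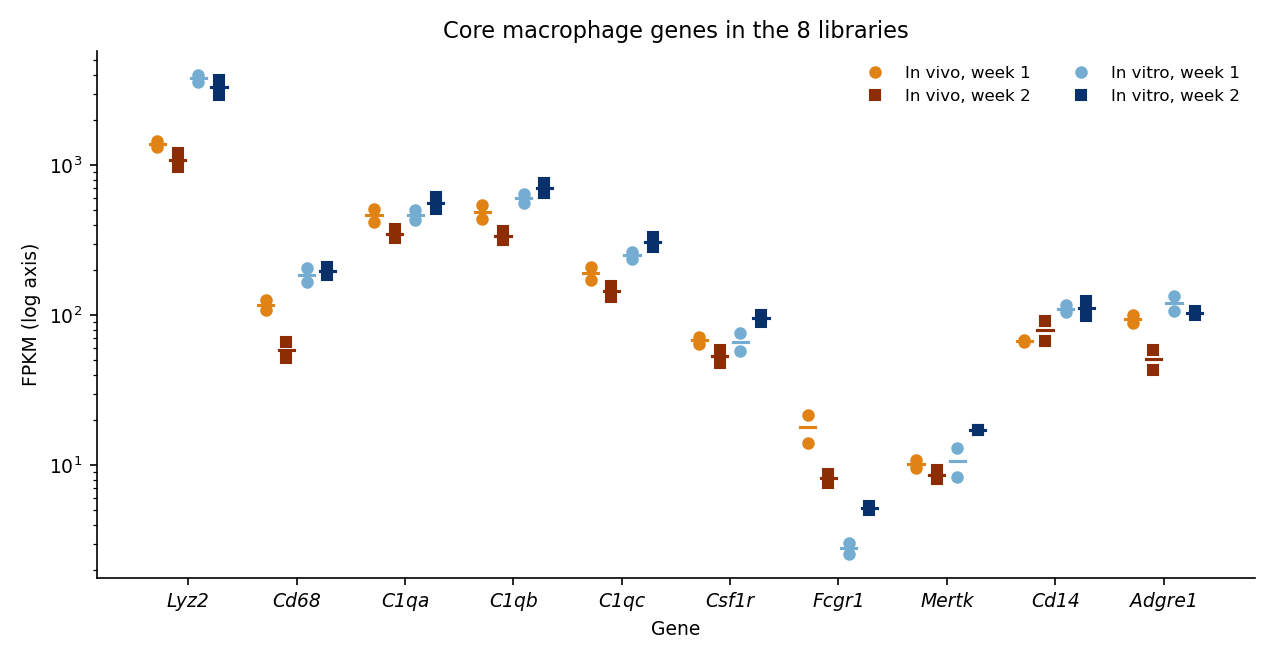
FPKM of each of the 10 core macrophage genes (log axis) in the 8 libraries, with circles for week 1, squares for week 2, warm colours for in vivo, blue for in vitro, and a short line at the mean of each pair. Fcgr1 is the gene whose in vivo points all lie above the in vitro points, from 7.66 to 21.7 FPKM against 2.56 to 5.34 FPKM.

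The order of the levels was much alike in the 4 groups at its top. Lyz2 came first in every group, followed by C1qb and C1qa in either order, then C1qc. C1qb and C1qa could not be separated in vivo, where their pairs of values overlapped at both weeks, whereas C1qb lay above C1qa in both weeks in vitro. Below C1qc the order was Cd68, Adgre1, Csf1r, Cd14, Fcgr1 and Mertk in vivo at week 1, with Csf1r and Cd14 overlapping. In vivo at week 2 Cd14 stood above Cd68, Csf1r and Adgre1, which overlapped their neighbours, and Mertk and Fcgr1 overlapped at the bottom. In vitro the lower order was Cd68, Adgre1, Cd14, Csf1r, Mertk and Fcgr1 at week 1, with Cd14 and Adgre1 trading places at week 2, and those neighbours overlapped at both weeks. Fcgr1 was the lowest member in vitro.

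At week 1, Fcgr1 was higher and Lyz2 was lower in vivo than in vitro, and the other 8 genes did not pass the test. At week 2, 5 genes were lower in vivo, Cd68, Lyz2, C1qc, C1qb and Adgre1, and none was higher. A gene counted as changed when limma's adjusted p (Benjamini-Hochberg over 15708 genes) was below 0.01 and its absolute log2 fold change above 1. At week 1, 1 of 10 members was higher beside 7.79% of all genes tested, and 1 was lower beside 5.07%. At week 2, 0 of 10 were higher beside 9.02%, and 5 were lower beside 8.05%. The median log2 fold change of the 10 was -0.33 at week 1 and -1.01 at week 2, while the median of all genes tested was -0.0058 and -0.0034. Of the week 2 calls, those of Adgre1, C1qb and C1qc lay close to the fold limit: 8 of the 10 had an adjusted p below 0.01 in limma, and Mertk, Csf1r and C1qa missed only on fold. The share of all genes past that p limit alone was not counted. At a limma adjusted p below 0.05 with no fold limit, 3862 of all 15708 genes were higher and 3963 lower at week 2. Without replicate 2 of either week 2 group, Adgre1, C1qb and C1qc were no longer called and 2 genes were, Lyz2 and Cd68. Fitting the 4 libraries of week 2 alone also left 2, Cd68 and C1qc, with Lyz2 at an adjusted p of 0.012 (limma, Benjamini-Hochberg). That fit called 861 of all 15708 genes lower.

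**Figure D2:**
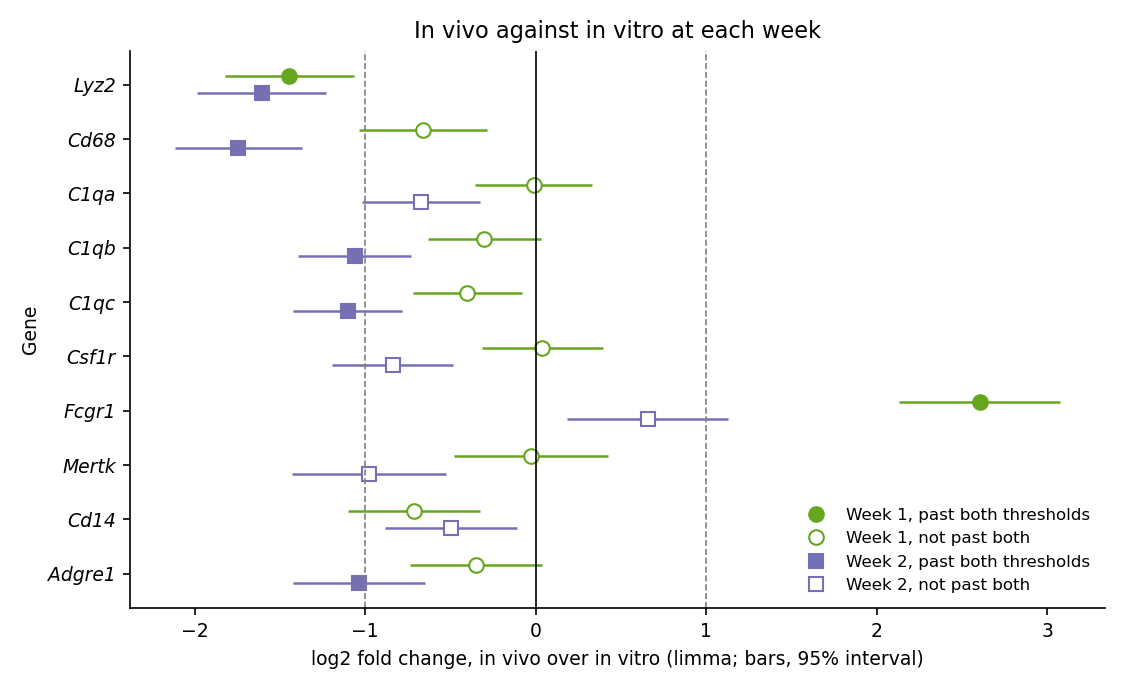
log2 fold change of each gene, in vivo over in vitro, from limma, with circles for week 1, squares for week 2, bars for the 95% interval, filled symbols for genes past both thresholds and dashed lines at the fold limit. The week 2 value lies to the left of the week 1 value for every gene but Cd14, and the gap is widest for Fcgr1, from 2.61 to 0.66.

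Lyz2 encodes lysozyme M, a secreted and lysosomal enzyme that cuts bacterial cell walls, and it was by far the most abundant of the 10. Lyz2 lies at chr10:117277331-117282321 on the minus strand (mm10). It stood at 1453 and 1331 FPKM in vivo at week 1, 1202 and 975 FPKM in vivo at week 2, 3574 and 4014 FPKM in vitro at week 1, and 2921 and 3711 FPKM in vitro at week 2. Every in vivo value was below every in vitro value. Among protein-coding genes it ranked between 2 and 4 by FPKM in the in vitro libraries and between 17 and 35 in the in vivo libraries. Its log2 fold change of -1.45 ± 0.16 (SE) for the first week and -1.60 ± 0.16 for the second made it 2.72-fold and 3.04-fold lower in vivo (limma, Benjamini-Hochberg adjusted p = 0.00048 and 0.00023). Its close copy Lyz1, of which Lyz2 shares 15.4% of its windows of 50 bases, was listed at 0.486 to 3.23 FPKM, so that fragments moved between the pair could change Lyz2 by very little.

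Cd68, a heavily glycosylated membrane protein of late endosomes and lysosomes, was also lower in vivo than in vitro in all libraries. Cd68 lies at chr11:69664213-69666153 on the minus strand. Its values were 126 and 109 FPKM in vivo at week 1, 66.3 and 51.6 FPKM in vivo at week 2, 165 and 208 FPKM in vitro at week 1, and 185 and 208 FPKM in vitro at week 2. The in vivo values did not reach the in vitro values at either week, and the in vivo pairs of week 1 and week 2 did not meet. At week 1 its log2 fold change was -0.66 ± 0.16 (limma adjusted p = 0.014, Benjamini-Hochberg), and at week 2 it was -1.74 ± 0.16, 3.35-fold lower (adjusted p = 0.00015, limma, Benjamini-Hochberg).

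C1qa, C1qb and C1qc encode the chains of C1q, the recognition part of the first complement component, and lie side by side between chr4:136880129 and chr4:136898803 (mm10), all on the minus strand. C1qa was at 513 and 419 FPKM in vivo at week 1, 374 and 327 FPKM in vivo at week 2, 432 and 506 FPKM in vitro at week 1, and 509 and 611 FPKM in vitro at week 2. C1qb was at 540 and 439 FPKM, then 362 and 315 FPKM in vivo, and at 562 and 641 FPKM, then 651 and 764 FPKM in vitro. C1qc was at 210 and 171 FPKM, then 156 and 133 FPKM in vivo, and at 238 and 262 FPKM, then 286 and 334 FPKM in vitro. All 3 were lowest in vivo at week 2 and highest in vitro at week 2. Over both weeks C1qb and C1qc did not overlap between the conditions, while C1qa did, through the hearts of week 1. At week 1 the log2 fold changes were -0.01 ± 0.15 for C1qa, -0.30 ± 0.14 for C1qb and -0.40 ± 0.13 for C1qc, and none was called. At week 2 C1qb was 2.09-fold and C1qc 2.15-fold lower in vivo (limma, Benjamini-Hochberg adjusted p = 0.00083 and 0.00059). C1qa had a log2 fold change of -0.67 ± 0.15 (limma adjusted p = 0.0078, Benjamini-Hochberg), inside the fold limit.

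The proportions of C1qb and C1qc to C1qa differed between the conditions and varied less within each. C1qb over C1qa was 0.963 to 1.05 in the in vivo libraries and 1.25 to 1.30 in the in vitro libraries. In vivo that ratio was 1.05 and 1.05 at week 1 and 0.969 and 0.963 at week 2. C1qc over C1qa was 0.405 to 0.418 in vivo and 0.519 to 0.562 in vitro. Neither ratio overlapped between the conditions, whereas C1qb over C1qc ran from 2.28 to 2.58 with overlapping ranges. In vivo C1qb over C1qc was 2.58 and 2.57 at week 1 and 2.32 and 2.38 at week 2. A ratio within a library does not depend on the scaling between libraries, and no test was made of it.

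Csf1r encodes the receptor for CSF1 and IL-34, on which most macrophages depend for survival. It was at 71.6 and 64.4 FPKM in vivo at week 1, 58.8 and 47.9 FPKM in vivo at week 2, 57.8 and 75.6 FPKM in vitro at week 1, and 90.8 and 99.5 FPKM in vitro at week 2. The week 1 pairs overlapped completely and the week 2 pairs were well apart. The fitted log2 fold change was 0.04 ± 0.15 in the first week, a sign that turned under another scaling (-0.30 with libraries scaled by their fragments on genes), and -0.84 ± 0.15 at week 2 (limma, Benjamini-Hochberg adjusted p = 0.86 and 0.0034). It was not called at either week.

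Fcgr1 encodes Fc gamma receptor I, the high-affinity receptor for IgG, and was the only one of the 10 above its culture level in all 4 in vivo libraries. Fcgr1 lies at chr3:96282909-96293969 on the minus strand. It was at 21.7 and 14.1 FPKM in vivo at week 1, 8.79 and 7.66 FPKM in vivo at week 2, 3.04 and 2.56 FPKM in vitro at week 1, and 5.0 and 5.34 FPKM in vitro at week 2. The in vivo values were highest at week 1 and the in vitro values at week 2, so the conditions lay closer together at week 2. It was 6.08-fold higher in vivo at week 1, with a log2 fold change of 2.61 ± 0.20 (limma, Benjamini-Hochberg adjusted p = 9.0e-05). At week 2 its log2 fold change was 0.66 ± 0.20 with adjusted p = 0.030 (limma, Benjamini-Hochberg), which was not called. Set against Csf1r in the same library, Fcgr1 stood at 0.149 to 0.303 in vivo and at 0.0339 to 0.0551 in vitro.

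Mertk encodes a receptor tyrosine kinase of the TAM family through which macrophages take up apoptotic cells, and it lies at chr2:128698956-128802894 on the plus strand. It was at 9.61 and 10.8 FPKM in vivo at week 1, 9.21 and 8.10 FPKM in vivo at week 2, 8.34 and 12.9 FPKM in vitro at week 1, and 17.1 and 17.1 FPKM in vitro at week 2. Only the in vitro libraries of week 2 stood apart. Hearts and cultures differed by -0.03 ± 0.19 on the log2 scale at week 1 and by -0.98 ± 0.19 at week 2 (limma, Benjamini-Hochberg adjusted p = 0.93 and 0.0050), just inside the fold limit.

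Cd14, the co-receptor that hands lipopolysaccharide to TLR4, was at 66.4 and 68.6 FPKM in vivo at week 1, 92.1 and 66.9 FPKM in vivo at week 2, 105 and 116 FPKM in vitro at week 1, and 99.4 and 123 FPKM in vitro at week 2. All in vivo values were below all in vitro values, by a small margin at week 2. The log2 fold changes were -0.71 ± 0.16 and then -0.50 ± 0.16 (limma, Benjamini-Hochberg adjusted p = 0.012 and 0.040), and it was called at neither. Relative to Cd68 it was at 0.528 to 0.629 in vivo at week 1, 1.29 to 1.39 in vivo at week 2 and 0.539 to 0.637 in vitro, so the hearts at week 2 stood apart from the other 3 groups.

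Adgre1 encodes F4/80, the adhesion G protein-coupled receptor by which mouse macrophages are usually recognised, and it lies at chr17:57358691-57483527 on the plus strand. It was at 100 and 88.4 FPKM in vivo at week 1, 58.6 and 43.2 FPKM in vivo at week 2, 107 and 134 FPKM in vitro at week 1, and 101 and 106 FPKM in vitro at week 2. The in vivo libraries were all below the in vitro libraries, those of week 1 by little. For Adgre1 the log2 fold changes were -0.35 ± 0.16 and then -1.04 ± 0.16 (limma, Benjamini-Hochberg adjusted p = 0.13 and 0.0019), and the second was called.

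Taking the mean of both weeks, 1 of the 10 genes was higher in vivo, Fcgr1 (log2 fold change 1.63 ± 0.14), beside 9.56% of all genes tested. Lyz2 (-1.53 ± 0.11) and Cd68 (-1.20 ± 0.11) were lower, 2 of 10 beside 7.3% of all genes. By the plainer count of libraries that do not overlap, 6 of 10 had all 4 in vivo values below all 4 in vitro values (Lyz2, Cd68, Adgre1, C1qb, C1qc and Cd14), against 20% of all genes tested. Fcgr1 alone had all 4 above, against 20.5%. Csf1r, C1qa and Mertk overlapped. When libraries were scaled by their fragments on genes alone, the median log2 fold change of all genes moved to -0.34 at week 1 and -0.32 at week 2. Higher genes then made up 36.8% of all calls at week 1 and 33.1% at week 2, against 60.6% and 52.8% with the deposited scaling. With that scaling 3 members were lower at week 1 and 8 at week 2, beside 1558 and 2087 of all 15708 genes.

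The fold changes of week 1 and week 2 were then compared directly, by the contrast of the 2 differences. The difference was negative for 9 of the 10 genes, with a median of -0.73 on the log2 scale beside -0.0085 for all genes tested, and it passed both thresholds for 0 of 10 beside 1.73% of all genes (limma). With no adjustment 8 of the 10 had p below 0.05 in limma, a limit for which the share of all genes was not counted. Limma's voom on the recovered fragments called 2, Fcgr1 and Cd68, both lower, beside 330 lower of all 15708 genes. Fcgr1 had the largest difference, -1.95 ± 0.28 (limma, Benjamini-Hochberg adjusted p = 0.010, just above the limit), followed by Cd68 with -1.08 ± 0.22 (adjusted p = 0.031). Lyz2 (-0.16 ± 0.23) and Cd14 (0.22 ± 0.23) were nearest to 0.

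Within each condition, the step from week 1 to week 2 pointed down for most members in the heart and up for most in culture. In vivo 9 of the 10 had a negative log2 fold change, median -0.40 beside -0.0033 for all genes tested, and 0 of 10 passed both thresholds beside 2.18% of all genes (limma). Unadjusted p was below 0.05 for 6 of them, and voom called 1, Fcgr1, beside 203 lower of all 15708 genes. The largest in vivo steps were those of Fcgr1, -1.08 ± 0.20 (limma, Benjamini-Hochberg adjusted p = 0.015), and Cd68, -0.9995 ± 0.16 (adjusted p = 0.0094, with the fold change just inside the limit). In vitro 8 of the 10 had a positive log2 fold change, median 0.24 beside 0.016, and 0 of 10 passed beside 3.81% of all genes (limma), with unadjusted p below 0.05 for 3 and voom calling 0. Those 3 were Fcgr1 (0.87 ± 0.20), Mertk (0.71 ± 0.19) and Csf1r (0.52 ± 0.15). The direction in culture depended on the scaling. With quantile normalization Cd68, C1qa, C1qb, C1qc and Cd14 turned negative there beside Lyz2 and Adgre1, so most members then pointed down. Both step comparisons share their libraries with the comparisons above, so their directions are not separate evidence. For neither step was the share of all genes at the unadjusted limit counted.

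**Figure D3:**
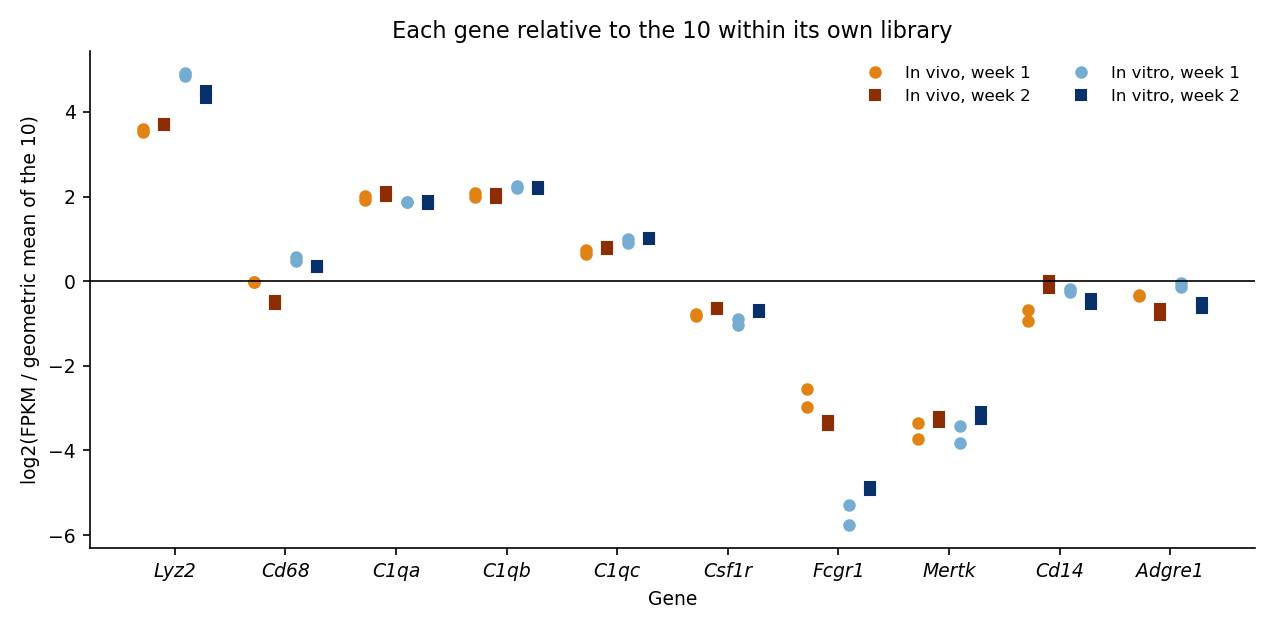
log2 of each gene's FPKM over the geometric mean of the 10 in the same library, with circles for week 1, squares for week 2, warm colours for in vivo and blue for in vitro. Fcgr1 stands 2.16 higher in vivo on average, Lyz2 1.02 lower and Cd68 0.70 lower, while Mertk and Csf1r overlap.

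The genes were also set against one another within each library, which does not rest on any scaling between libraries. On the log2 scale over the geometric mean of the 10, Fcgr1 averaged -3.05 ± 0.38 in the hearts and -5.21 ± 0.41 in the cultures (SD over 4 libraries, here and for the next genes). For Lyz2 the averages were 3.63 ± 0.09 for the hearts and 4.65 ± 0.28 for the cultures. Cd68 averaged -0.26 ± 0.29 and 0.44 ± 0.11. Averaged over both weeks, the other 7 genes differed between conditions by at most 0.25, with C1qa slightly higher and C1qb and C1qc slightly lower in vivo without overlap. For Cd14 that average joins opposite differences: at week 1 it stood at -0.81 in the hearts and -0.22 in the cultures, but at week 2 at -0.09 in the hearts and -0.48 in the cultures. The geometric mean holds Fcgr1, so the higher place of Fcgr1 in vivo lowers every other gene on this scale by construction. The differences on this scale therefore depend on the reference, and not only the small differences of C1qb and C1qc. Set against Cd68 alone, C1qb (0.52) and C1qc (0.45) lay higher in vivo, C1qc with overlap. Lyz2 then stood at -0.32 with overlap and Fcgr1 at 2.86 without. Adgre1 (0.51), Csf1r (0.80) and C1qa (0.86) lay higher in vivo without overlap, and Mertk (0.70) and Cd14 (0.60) with overlap. These are descriptions with no test. Across the 8 libraries the centred profile of C1qb followed the mean of the other members most closely (Pearson r = 0.98) and that of Fcgr1 ran against it (r = -0.53), the libraries of a group being among the points.

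The non-member genes whose profile was most like the mean of the 10 were Slc15a4, Nup98, Mpp5, C3ar1, Kcnk13, Arpc4, Siglec1, Spi1, Lcp1 and Hmox1, out of 11434 candidates with a mean of at least 1 FPKM. Their Pearson r over the 8 libraries was 0.981 to 0.988. Spi1, which encodes PU.1, was at 26.4 and 22.7 FPKM in vivo at week 1, 19.7 and 16.4 FPKM in vivo at week 2, 27.8 and 31.2 FPKM in vitro at week 1, and 31.4 and 41.2 FPKM in vitro at week 2. Siglec1, the lectin also called CD169, was at 2.57 to 9.35 FPKM in vivo and 8.07 to 19.1 FPKM in vitro. The measure was used to name genes and carries no test.

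The partners of each member were counted from lists of their pathways. The counts of these lists and of the marker lists stand beside 7.79% of all genes called higher and 5.07% called lower at week 1, and 9.02% and 8.05% at week 2. The count of 1 higher and 1 lower gene among 14 lysosomal genes at week 1, for example, is near that background. Of the C1 complex partners, 3 of 5 were measured above the filter. Serping1, the C1 inhibitor, was higher in vivo at both weeks (log2 fold change 1.23 ± 0.07 and 1.59 ± 0.07), C1ra at week 2 (1.38 ± 0.08), and C1s1 had 0.63 and 0.88 without being called. These members of the C1 list thus stood on the other side of the comparison from C1qb and C1qc. Of the 8 CSF receptors and ligands, Csf2rb2 was higher at both weeks and Csf2 at week 1, and none was called lower. The call of Csf2 rested on 22 and 27 fragments in vivo against 3 and 0 in vitro. At week 2 Csf2 had 11 and 4 fragments in vivo against 26 and 43 in vitro. The Csf1 ligand had log2 fold changes of -0.27 ± 0.08 and -0.08 ± 0.08 and the receptor chain Csf2ra 0.22 ± 0.09 and 0.36 ± 0.09, none called. Among the 4 other Fc gamma receptor genes, none was called at week 1. At week 2 Fcer1g, the signalling chain, was lower (-1.62 ± 0.18), as was the inhibitory Fcgr2b (-1.58 ± 0.14). Fcgr3 had 0.03 ± 0.13 and -0.84 ± 0.13 and was called at neither week. Fcgr4 had 357 and 205 fragments in vivo at week 1 against 161 and 175 in vitro. At week 2 it had 178 and 106 in vivo against 132 and 158 in vitro, and it was called at neither week. None of these 4 genes was called higher in vivo, although Fcgr4 leaned that way at week 1.

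Of the 15 measured genes for TAM receptors, their ligands and apoptotic cell uptake, 2 were higher and 0 lower at week 1 (limma), and 5 were higher and 1 lower at week 2. The higher genes at week 2 were Axl, Itgb5, Lrp1, Megf10 and Timd4, and the lower was Stab1. The call of Timd4 rested on 33 and 33 fragments in vivo against 0 and 1 in vitro. Axl, a sister receptor of Mertk, had log2 fold changes of 0.22 ± 0.05 and then 1.03 ± 0.05, so that Axl and Mertk lay on opposite sides of 0 at week 2. Gas6, the ligand of both receptors and the most abundant gene of the list, had -0.33 ± 0.07 and -0.58 ± 0.07 and was not called. Of the 13 genes of the LPS receptor complex and TLR adaptors, Lbp was higher at week 1 and Cd180 lower at both weeks, with Tlr1 lower at week 2. The more abundant members of that list, Tlr2 and Myd88, were not called. Of the 14 lysosomal genes, Ctss was higher and Lyz1 lower at week 1, and Ctsb and Lipa were lower at week 2. The call of Lyz1 rested on 17 and 8 fragments in vivo against 56 and 61 in vitro. Whether some of these came from its far more abundant copy Lyz2 was not tested. Ctsb, a protease, fell short of the limits at week 1 (-0.39 ± 0.12) and was lower at week 2 (-1.19 ± 0.12), while Ctsd had -0.28 ± 0.09 and -0.68 ± 0.09, called at neither. Of the 11 myeloid transcription factors, Runx1 was higher and Maf lower at both weeks, and Irf8 was lower at week 2. Runx1 is also used by other blood and stromal cells. Cebpb, the most abundant of that list, was not called. The list medians at week 2 were 1.38 for the C1 partners, 0.08 for the CSF genes, -1.21 for the Fc receptors, 0.31 for the TAM genes, -0.54 for the LPS genes, -0.40 for the lysosomal genes and -0.68 for the transcription factors, beside -0.0034 for all genes.

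**Figure D4:**
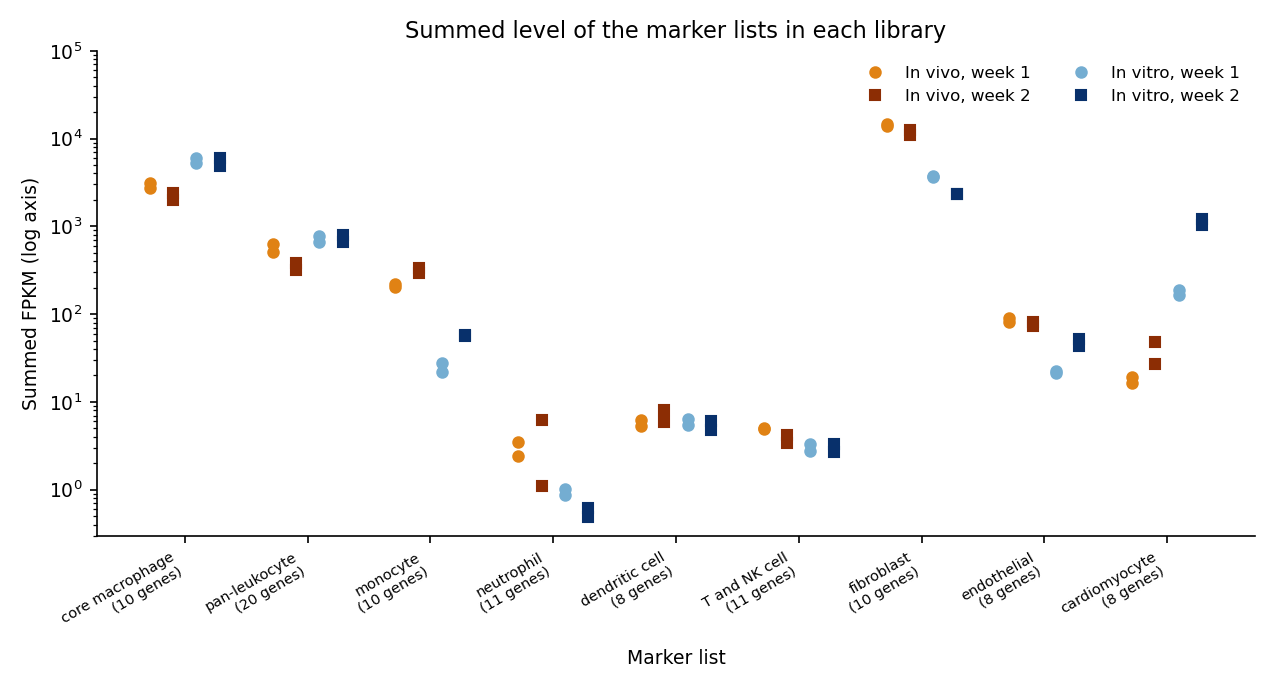
Summed FPKM of 9 marker lists (log axis) in the 8 libraries, with circles for week 1, squares for week 2, warm colours for in vivo and blue for in vitro. The monocyte and fibroblast sums lie higher in vivo and the core macrophage and cardiomyocyte sums higher in vitro, while neutrophil, dendritic cell and T and NK cell sums stay below 10 FPKM. At week 2 the higher monocyte sum in vivo rests on Ace, with F13a1 high in vitro. Ccr2, Chil3, Cx3cr1 and Plac8 were also called higher in vivo at that week.

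Markers of other cells moved with the same contrast and are given here because they stand beside every result above. The 20 pan-leukocyte genes summed to 319 to 632 FPKM in vivo and 658 to 791 FPKM in vitro, with 0 called at week 1 and 9 lower at week 2 (limma), among them Tyrobp (-1.52 ± 0.15), Laptm5 (-1.38 ± 0.18) and Lcp1. Of 9 measured monocyte genes 5 were higher in vivo at both weeks (Ace, Ccr2, Chil3, Cx3cr1 and Plac8), and F13a1 was lower at week 2. Chil3, a secreted protein of monocytes and activated macrophages, had 80 to 265 fragments in the in vivo libraries and none in vitro. With 3 fragments per in vitro library as the floor, the in vivo level of Chil3 at week 1 was at least 84.2-fold higher. For week 2 the bound was at least 49.0-fold higher. Ccr2, the chemokine receptor of classical monocytes, was at 2.24 to 6.23 FPKM in vivo, at 0.0192 and 0.0792 FPKM in vitro at week 1 and at 0 in vitro at week 2. With the same floor, the hearts of week 2 were at least 76.8-fold higher than the cultures of that week. At week 1 the fold from limma was 31.9. Ly6c2, another gene of classical monocytes, was at 0.0991 to 0.686 FPKM in vivo and at 0 in vitro, and was not called. Ace, which is also made by endothelial cells and fibroblasts, made up most of the in vivo monocyte sum, with 139 to 290 FPKM in vivo and 5.93 to 7.76 FPKM in vitro. With Ace left out, the sum stays higher in vivo at week 1 but lies lower in vivo at week 2. That lower sum rests on F13a1, which had 1069 and 1016 fragments in vivo against 4090 and 3857 in vitro at week 2. Ccr2, Chil3, Cx3cr1 and Plac8 were called higher in vivo at that week.

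Fibroblast genes summed to 10904 to 14759 FPKM in vivo and 2329 to 3775 FPKM in vitro, with 7 of 10 higher at both weeks. Cardiomyocyte genes summed to 16.3 to 48.0 FPKM in vivo and 166 to 1224 FPKM in vitro, with 7 of 8 lower and Pln higher at both weeks. Endothelial genes summed to 73.5 to 91.2 FPKM in vivo and 21.2 to 51.5 FPKM in vitro, with 7 of 8 higher at week 1 and 4 at week 2. The neutrophil list summed to 1.10 to 6.22 FPKM in vivo and 0.483 to 1.02 FPKM in vitro, dendritic cell genes to 4.79 to 8.13 FPKM over all libraries, and T and NK cell genes to 2.69 to 5.10 FPKM. B cell genes summed to 8.26 to 27.5 FPKM, mostly Ighm (6.11 to 26.6 FPKM), mast cell genes to 1.24 to 3.44 FPKM, and red blood cell genes to 4.02 to 6.57 FPKM in vivo and 0.331 to 0.648 FPKM in vitro. The part of these other cell types in the macrophage gene levels was not tested.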

How the data were processed

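RNA-seq was made by the authors from eGFP+ sorted cells with a SMARTER mRNA-Seq kit and sequenced by a commercial provider. The submitters' processing notes name CASAVA, HISAT2 (2.0.5) and mm10, and the counting tool and annotation are not given in the sources used here. The authors deposited 1 table of FPKM for 54532 genes in 8 libraries. In all libraries FPKM times gene length gave whole multiples of 1 fragment (tolerance 0.05), from which fragments per gene were recovered. Coordinates are those of the file, and 8 members have the same start and end in GENCODE vM21 (GRCm38).

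The members and lists were chosen with earlier results of these data known. Members were taken by name, and 7 pathway and 11 marker lists were used. In the pathway lists all called genes were counted and the 2 with the highest mean FPKM were named, except 1 gene that is not reported here. The 10 genes most like the members were named by Pearson r. Genes named beyond these were chosen after their values were seen. Genes with at least 0.5 FPKM in at least 2 libraries (15708) were tested on log2(FPKM + 0.1), so that fold changes of low genes are understated, with limma 3.58.1 (R 4.3.3), 4 group means, a variance trend and Benjamini-Hochberg adjustment over all tested genes, called at adjusted p below 0.01 and absolute log2 fold change over 1. These sizes follow the study's limits on P and fold change, here set on the adjusted p and in both directions. The fit was also run on simulated data, with changes set only in the in vivo group of week 1 and the same dispersion for every gene. Those settings differ from these libraries, so that run does not measure how reliable the calls here are. Replicate libraries differed beyond sampling noise (chi-square per gene 4.50 to 9.93). Same-numbered libraries did not deviate together (correlations -0.0199 and -0.0219), so they were not paired. A count model was not the main test because FPKM were deposited. Alternatives were other pseudocounts, filters and scalings, voom on recovered fragments, no variance trend, a replicate block, only the libraries of a week or condition, other thresholds and leaving out each library. Intervals and floors cover counting error or the spread between libraries only.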

Additional observations from a re-analysis of the deposited data

Results flagged for a closer look

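For 3 genes the in vivo against in vitro difference differed between week 1 and week 2 at a limma adjusted p below 0.05 (Benjamini-Hochberg over 15708 genes), a looser limit than that used for calls and one with no fold limit. Over all genes tested, the difference was positive for 605 and negative for 953 at that limit. Among the 3, Fcgr1 had the largest difference, -1.95 ± 0.28 on the log2 scale (limma adjusted p = 0.010): its excess over culture was 2.61 at week 1 and 0.66 at week 2. Cd68 had -1.08 ± 0.22 (adjusted p = 0.031), from -0.66 to -1.74. Csf1r had -0.88 ± 0.21 (adjusted p = 0.047), from 0.04 to -0.84. Leaving out each library in turn, the adjusted p ranged from 0.019 to 0.048 for Fcgr1, from 0.030 to 0.12 for Cd68 and from 0.041 to 0.16 for Csf1r, with the direction unchanged in all 8 fits. The mean level of Fcgr1 at weeks 1 and 2 was 2.80 ± 0.34 and 5.17 ± 0.24 FPKM in vitro and 17.9 ± 5.37 and 8.23 ± 0.80 FPKM in vivo (SD, n = 2 each), and neither step between weeks was called.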

How the results depend on the processing

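The calls of Fcgr1 and Lyz2 at week 1 and of Cd68 at week 2 kept their direction and stayed past the limits in all 19 alternatives. Scaling by fragments alone gave 3 members lower at week 1, 8 at week 2, 5 over both weeks and 1 for week 2 against week 1 in vivo. Of all 15708 genes, 1558, 2087, 1979 and 169 were lower in these comparisons with that scaling. Quantile normalization gave 2 lower at week 1 and 4 over both weeks, beside 941 and 1301 of all 15708 genes. With adjusted p below 0.05 and no fold limit, 3 were lower at week 1, 1 higher and 9 lower at week 2, 9 lower over both weeks, 3 lower in the difference between weeks, 4 lower from week 1 to week 2 in vivo and 3 higher in vitro. At that limit 3240 of all 15708 genes were lower at week 1. At week 2, 3862 were higher and 3963 lower, and over both weeks 4624 were lower. The difference between weeks had 953 lower genes, the step in vivo 1127 lower and the step in vitro 2212 higher. Fitting only the 4 libraries of week 2 gave 2 lower, Cd68 and C1qc, beside 861 of all 15708 genes. Lyz2 (limma adjusted p = 0.012), C1qb (0.010) and Adgre1 (0.018) then lost their calls. A filter of at least 1 FPKM gave 1 lower in the difference between weeks, beside 208 of the 13659 genes it kept. Voom gave 2 lower in that difference and 1 lower from week 1 to week 2 in vivo, beside 330 and 203 of all 15708 genes. Values that changed sign were Csf1r at week 1 (-0.30 by fragments, -0.12 by quantiles), Cd14 from week 1 to week 2 in vitro (-0.050 and -0.26), and, by quantiles in that step, Cd68 (-0.21), C1qa (-0.097), C1qb (-0.049) and C1qc (-0.034). Relative to Cd68 alone, C1qb (0.52) and C1qc (0.45) lay higher in vivo. The geometric mean contains Fcgr1, which lay higher in vivo, and Cd68 itself lay lower in vivo. The direction of C1qb and C1qc relative to other members therefore depends on the reference. Against Cd68, Lyz2 moved from -1.02 to -0.32, with overlap, and Adgre1 from -0.19 to 0.51. Fcgr1 stayed higher in vivo on both scales.

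Leaving out each library in turn gave 2 to 5 members lower at week 2, with 2 left without replicate 2 of in vivo week 2 or replicate 2 of in vitro week 2, where C1qb, C1qc and Adgre1 lost their calls. Adgre1 also lost its call without replicate 1 of in vitro week 2. For the step in vitro 0 to 1 were higher, Mertk without replicate 2 of in vitro week 1. Signs that turned were those of Csf1r (-0.15 to 0.23), C1qa (-0.16 to 0.14) and Mertk (-0.34 to 0.29) at week 1, Lyz2 (-0.33 to 0.013) and Cd14 (-0.014 to 0.45) in the difference between weeks, Cd14 in vivo (-0.013 to 0.45), and Cd68 (-0.082 to 0.25) and Cd14 (-0.15 to 0.16) in vitro.

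With the replicate block the members' counts were unchanged at 1 higher and 1 lower at week 1, 5 lower at week 2, and 1 higher and 2 lower over both weeks. The block called 1152 of all 15708 genes higher and 699 lower at week 1, and 1175 lower at week 2. For both weeks together it called 1436 higher and 1109 lower. Over all genes, the difference between weeks had 90 higher and 181 lower calls, against 11 and 16 with the block, 27 and 45 with no filter, 32 and 39 with no variance trend, and 143 and 330 by voom. Leaving out a library left 1 to 37 higher and 1 to 49 lower there. Week 2 against week 1 had 193 higher and 149 lower genes in vivo and 434 and 165 in vitro, against 0 with only the 4 libraries of that condition. The lower genes of week 1 numbered 796, against 1558 scaled by fragments and 485 with a pseudocount of 1, and those of week 2 1265, against 2087 scaled by fragments.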
